A study of Mus musculus with 7 samples.

Results

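The genes described here code for the core machinery of apoptosis: the Bcl2 family, the caspases, the inhibitor of apoptosis (IAP) proteins and the death receptors with their adaptors and kinases. They were taken from the expression table by gene symbol, and all 41 symbols on the list were present among its 24346 genes. RNA was measured in primary neurospheres, floating clusters of cells that grow from adult hippocampal neural stem cells (NSCs) in EGF and FGF, after 8 days of culture, with 1 mouse per library. The 3 Med23 CKO libraries are named KO_117, KO_214 and KO_218 after their mice, and the 4 control libraries WT_215, WT_116, WT_213 and WT_220. All mice were C57/BL6, were 2 months old by their labels, and had received tamoxifen by gavage at 200 mg/kg on 5 consecutive days, controls included. The Med23 CKO mice carried Nestin-CreER and Med23 alleles with loxP sites around exons 5 to 7, so that recombination was limited to cells in which the Nestin promoter was active. The controls were littermates, labelled wild type, to which the study's methods give the genotypes Med23 flox/+ and Med23 flox/flox. Med23 is a subunit of Mediator, the complex that connects transcription factors with RNA polymerase II.

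In the mitochondrial pathway of apoptosis, BH3-only proteins sense damage or loss of growth factors and engage the pro-survival Bcl2 proteins or activate Bax and Bak1, which then open the outer mitochondrial membrane. Cytochrome c leaves the mitochondria and joins Apaf1 in the apoptosome, which activates Casp9 and the caspases that act after it. In the receptor pathway, ligands such as Fasl and Tnf act through Fadd, Tradd, Ripk1 and Casp8. IAP proteins restrain both routes, and Cflar, an inhibitor of Casp8, restrains the receptor route. In the adult hippocampus many newborn cells are removed by apoptosis, and mice without Bax keep more of them.

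Levels are given in FPKM, fragments counted per gene after scaling for transcript length and library size, in the order of mice WT_215, WT_116, WT_213 and then WT_220 for control, and KO_117, KO_214 and then KO_218 for Med23 CKO. Differences are log2 fold changes of Med23 CKO over control on the log2(FPKM + 1) scale with their SE, tested with limma, and a positive value means a higher mean in Med23 CKO. This scale understates the change of genes of low level. Of the 41 genes, 40 had a mean of at least 0.5 FPKM over the 7 libraries and were tested among 14151 genes, and Bik, a BH3-only gene with a mean of 0.419 FPKM, was not.

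Med23 itself was measured at 11.4, 10.3, 12.9 and 10.1 FPKM in control and at 9.97, 9.27 and 8.12 FPKM in Med23 CKO. All Med23 CKO values lay below all control values, by a log2 fold change of -0.26 ± 0.18 (SE; two-sided exact permutation test, p = 0.0571), and reads from the exons outside the deleted part still enter these values. The neural stem cell genes Nes (61.1 to 240.0 FPKM) and Sox2 (69.4 to 194 FPKM) were expressed in every library, and none of the marker genes examined was at 0 in any of them. KO_214 stood apart. The mean log2(FPKM + 1) of 15 microglia and macrophage genes was 5.08 there, against 1.57 to 3.37 in control, 1.62 in KO_117 and 3.02 in KO_218, and their summed level was 1400.0 FPKM against 50.0 to 312 FPKM over the control libraries. Of those 15 genes 13 were highest in KO_214, as were 10 of 10 endothelial genes, whereas the mean of 10 cycling cell genes was lowest there, at 3.20 against 4.32 to 6.20 in control, 6.64 in KO_117 and 5.29 in KO_218. In bulk RNA, fewer cells of a type and less RNA per cell cannot be told apart.

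The apoptosis genes showed no change between Med23 CKO and control that passed correction for multiple testing. At an adjusted p under 0.05 limma called 0 of the 40, as it did 0 of all 14151 genes (0.0%), and the adjusted p of each gene of the list rounded to 1. At an unadjusted p under 0.05, 1 gene was higher in Med23 CKO (Bid), where 0.502% of all genes were, and 1 was lower (Bbc3), where 0.996% of all genes were. For 2 genes (Bid and Bmf) every Med23 CKO library was higher than every control library, against 0.784% of all genes, and for 1 gene (Bax) every Med23 CKO library was lower, against 1.53% of all genes. Means were higher in Med23 CKO for 27 of the 40 genes (67.5%) and lower for 13, while 43.8% of all genes had a higher mean. The median log2 fold change was 0.07, against -0.03 over all genes, and 22 of the 40 differences were smaller than 0.25 in size. The genes whose means differed most between the groups, Casp1, Tnfrsf1b and Casp4, were those for which a single library, KO_214, lay far from the rest.

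**Figure D1:**
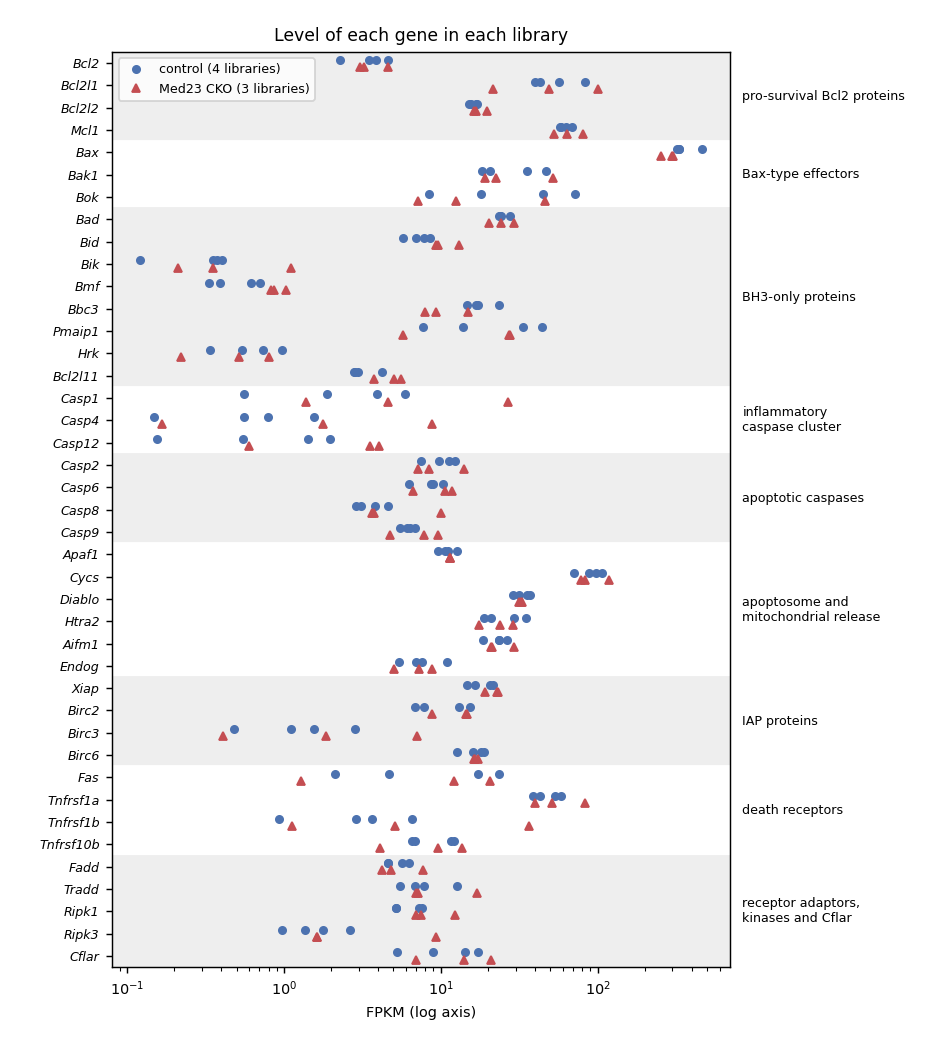
FPKM of each of the 41 genes in each library on a log axis, with circles for the 4 control libraries, triangles for the 3 Med23 CKO libraries and shading by role. Bax is the gene of highest level in every library (252 to 463 FPKM), and for Tnfrsf1b, Casp1 and Casp4 1 Med23 CKO library lies to the right of the other 6.

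**Figure D2:**
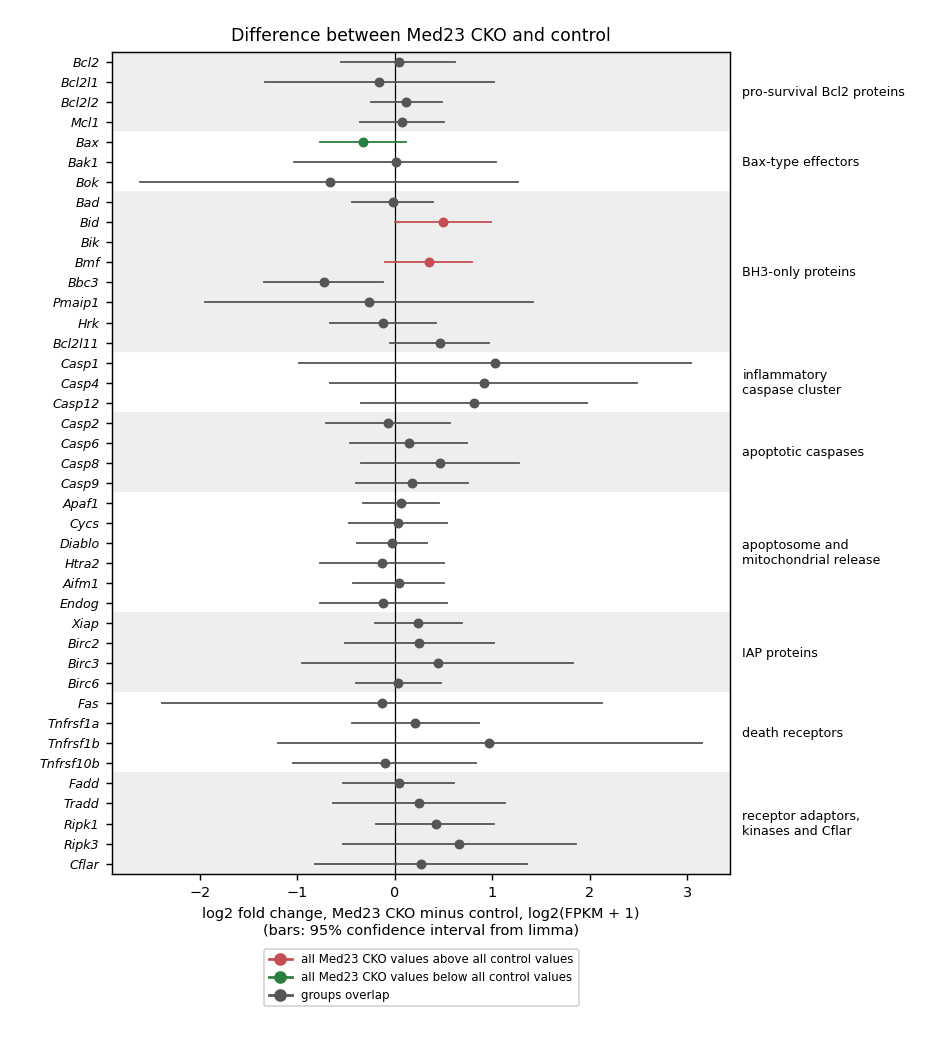
Log2 fold change of Med23 CKO over control for the 40 genes tested, as points with 95% confidence intervals from limma, and coloured by whether the groups overlap. The interval of Bbc3 (-1.34 to -0.12) lies wholly below 0, that of Bid (0.00 to 0.99) starts at 0, and those of Tnfrsf1b, Fas, Casp1 and Bok are the widest.

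The effector proteins are the pore formers of the family. Bax was measured at 332, 321, 328 and 463 FPKM in control and at 302, 300.0 and 252 FPKM in Med23 CKO. Each Med23 CKO value was below each control value, with 302 FPKM in KO_117 against 321 FPKM in WT_116 as the closest pair, and WT_220 stood above the other controls. The log2 fold change was -0.33 ± 0.19 (SE; limma, unadjusted p = 0.123; two-sided exact permutation test, p = 0.0571, where the smallest possible is 0.0286). It was -0.21 without WT_220 and -0.37 without KO_214. Bax supplied 75.4% to 92.3% of the summed FPKM of the 3 effector genes. Bak1, its closest functional partner, was at 35.3, 18.3, 20.7 and 46.8 FPKM in control and at 52.2, 22.5 and 19.2 FPKM in Med23 CKO, so that both groups spanned nearly the same range (log2 fold change 0.01 ± 0.44). Bok, a less studied relative, was at 44.6, 8.38, 18.0 and 71.6 FPKM in control and at 46.4, 7.21 and 12.5 FPKM in Med23 CKO. Its levels differed 9.93-fold between the lowest and highest library, and the 2 groups overlapped (-0.67 ± 0.83). On leaving out 1 library the log2 fold change ran from -0.13 without KO_214 to -1.40 without KO_117, and it was -0.21 without WT_220, -0.43 without WT_215 and -1.20 without WT_116.

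BH3-only proteins start the pathway, and the 3 genes of the list other than Bax with an unadjusted p under 0.05 or with groups that did not overlap were all of this class. Bbc3, which codes for Puma, a p53 target that binds all pro-survival members, was at 14.7, 17.3, 16.7 and 23.6 FPKM in control and at 7.90, 15.0 and 9.29 FPKM in Med23 CKO. KO_117 and KO_218 lay below every control, and KO_214 lay above WT_215. The log2 fold change was -0.73 ± 0.26 (SE; limma, unadjusted p = 0.0257, 95% interval -1.34 to -0.12; exact permutation test, p = 0.0571). Without KO_214 it was -0.97 (unadjusted p = 0.00545), and the unadjusted p passed 0.05 without WT_220 (0.0619), without KO_117 (0.0846) or without KO_218 (0.0778).

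Bid, which links Casp8 to the mitochondria once it is cleaved, was at 5.77, 6.94, 8.57 and 7.79 FPKM in control and at 9.58, 13.0 and 9.39 FPKM in Med23 CKO. All Med23 CKO values were above all control values, and that of KO_214 was the highest. The log2 fold change was 0.49 ± 0.21 (SE; limma, unadjusted p = 0.0484; exact permutation test, p = 0.0571). The unadjusted p was above 0.05 in each of the 7 fits that left out 1 library, from 0.0518 without WT_213 to 0.152 without KO_214, where the log2 fold change was 0.35.

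Bmf, a BH3-only protein known for its tie to the cytoskeleton, was scarce, at 0.614, 0.702, 0.336 and 0.392 FPKM in control and at 0.870, 1.04 and 0.828 FPKM in Med23 CKO. The groups did not overlap here either, and all values stayed near 1 FPKM or below. The log2 fold change was 0.35 ± 0.19 (SE; limma, unadjusted p = 0.107; exact permutation test, p = 0.0571) and was 0.77 with a pseudocount of 0.1 in place of 1. With no filter on low values its unadjusted p was 0.0231.

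Bcl2l11, which codes for Bim, a BH3-only protein induced on loss of trophic factors, was at 2.98, 2.79, 4.21 and 2.85 FPKM in control and at 5.04, 5.62 and 3.74 FPKM in Med23 CKO. KO_218 lay below WT_213 and the other Med23 CKO values lay above all controls. The log2 fold change was 0.46 ± 0.22 (SE; limma, unadjusted p = 0.0716; exact permutation test, p = 0.0857), and the unadjusted p was under 0.05 after quantile normalization (0.0490), after median centring (0.0422) and without KO_218 (0.0422). The log2 fold change was 0.19 with array weights (unadjusted p = 0.364) and 0.36 without KO_214 (unadjusted p = 0.182). Pmaip1, or Noxa, another p53 target, was at 13.8, 44.3, 33.5 and 7.75 FPKM in control and at 5.75, 27.7 and 27.2 FPKM in Med23 CKO, a 7.69-fold range that the groups shared (-0.27 ± 0.72). Bad, whose activity is set by phosphorylation, was steady at 24.0, 24.4, 23.7 and 27.5 FPKM in control and at 24.4, 29.5 and 20.2 FPKM in Med23 CKO (-0.02 ± 0.18). Hrk stayed between 0.220 and 0.968 FPKM, and Bik between 0.122 FPKM in WT_220 and 1.11 FPKM in KO_214.

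**Figure D3:**
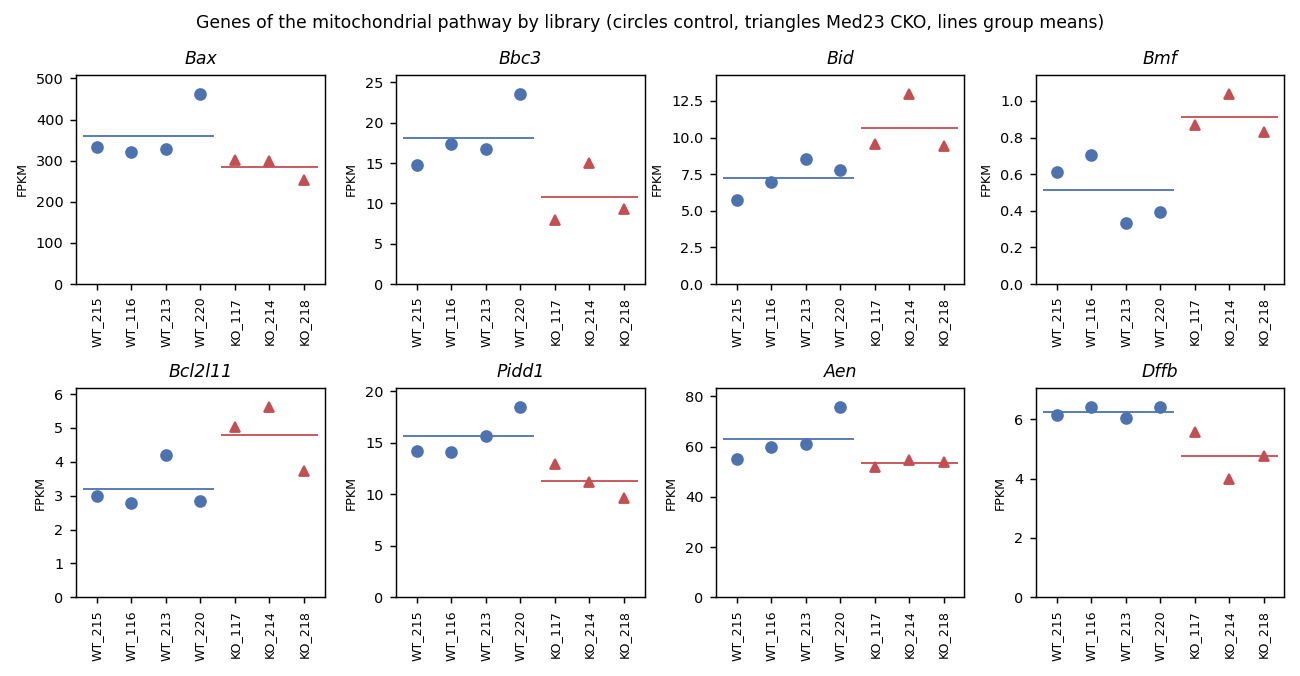
FPKM by library of Bax, the BH3-only genes Bbc3, Bid, Bmf and Bcl2l11, and Pidd1, Aen and Dffb from the list of other pathway genes, with circles for control, triangles for Med23 CKO and lines at group means. The groups are apart for Bax, Bid, Bmf, Pidd1, Aen and Dffb, while for Bbc3 the KO_214 value of 15.0 lies above the WT_215 value of 14.7.

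The promoter sequences of these 4 genes are shown because they are the genes of the list with an unadjusted p under 0.05 or with groups that did not overlap. Each is the 250 bases before a start site in RefSeq, read 5′ to 3′ on the strand of the gene in GRCm38.p6, the assembly that mm10 corresponds to. The windows are chr7:45466899-45467148 on the minus strand for Bax, chr7:16309333-16309582 on the plus strand for Bbc3, chr6:120916825-120917074 on the minus strand for Bid and chr2:118549687-118549936 on the minus strand for Bmf. Bbc3 and Bmf have 3 start sites listed each, of which 1 is shown. The Bbc3 window lies inside the gene, whose listed start is 16308398, so the sequence before that start was not examined here. Most of the Bid window, with its Sp1 boxes, also lies inside its gene, whose listed 5′ end is 120917062. The sequence before that end was thus mostly not examined. The Bax window overlaps the listed 5′ end of its gene, 45466903, by a few bases. Capitals mark the matches on either strand to the motifs named below, some of which overlap.
Bax: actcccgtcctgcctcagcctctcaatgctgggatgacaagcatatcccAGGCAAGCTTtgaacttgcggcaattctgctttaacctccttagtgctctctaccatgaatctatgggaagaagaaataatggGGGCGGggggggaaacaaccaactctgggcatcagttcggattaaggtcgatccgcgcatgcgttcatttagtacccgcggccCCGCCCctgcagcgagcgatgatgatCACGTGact
Bbc3: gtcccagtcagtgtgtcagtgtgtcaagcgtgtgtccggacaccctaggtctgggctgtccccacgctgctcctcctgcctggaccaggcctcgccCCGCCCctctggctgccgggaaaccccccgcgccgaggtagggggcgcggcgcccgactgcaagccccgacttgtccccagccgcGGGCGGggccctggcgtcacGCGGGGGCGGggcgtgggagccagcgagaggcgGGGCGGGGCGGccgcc
Bid: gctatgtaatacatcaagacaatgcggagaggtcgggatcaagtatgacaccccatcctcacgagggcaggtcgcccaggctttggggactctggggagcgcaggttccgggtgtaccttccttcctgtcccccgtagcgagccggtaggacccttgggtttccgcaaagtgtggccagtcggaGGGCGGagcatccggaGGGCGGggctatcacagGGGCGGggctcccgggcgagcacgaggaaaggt
Bmf: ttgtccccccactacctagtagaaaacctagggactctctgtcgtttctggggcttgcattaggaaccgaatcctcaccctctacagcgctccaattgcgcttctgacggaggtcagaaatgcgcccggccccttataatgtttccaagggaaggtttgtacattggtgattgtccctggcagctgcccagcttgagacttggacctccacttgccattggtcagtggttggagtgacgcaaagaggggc

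The Sp1 box GGGCGG was found in the Bax, Bbc3 and Bid windows and not in that of Bmf. Promoters were on file for 36 of the 41 genes, and this box was found in 63.9% of them, against 32.7% of 32851 promoter windows of the same length over the genome. Those windows were not matched to the list for base composition or for expression in these cells. Their median was 52.4% G and C, against 54.0% to 76.4% in the 4 windows shown. The p53 half-site was found in the Bax window and in no other of the 36, and in 7.13% of all windows. The E-box CACGTG in the Bax window was found in 6.02% of all windows. The G variant of the EGR site, GCGGGGGCG, which in the Bbc3 window overlaps an Sp1 box, was found in the windows of Bbc3 and Bcl2l11 and in 2.57% of all windows, and the EGR consensus GCGTGGGCG in none of the 36 and in 0.536% of all windows. The CRE TGACGTCA was found in the windows of Cycs and Birc2 (1.55% of all windows), while the ETS site CCGGAAG was found in 6.91%, the AP-1 site TGACTCA in 4.46% and the forkhead site GTAAACA in 3.17% of all windows and in none of the 4 shown. These are matches of letters and not tests of binding.

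Pro-survival Bcl2 proteins hold Bax and Bak1 in check, and none of their 4 genes differed between the groups by more than 0.16 in size on the log2 scale. Mcl1, a short-lived member that neural progenitors are known to need, was at 62.5, 58.3, 69.1 and 57.7 FPKM in control and at 64.2, 81.0 and 52.7 FPKM in Med23 CKO (log2 fold change 0.07 ± 0.19). Bcl2l1, which codes for Bcl-xL, was at 43.0, 83.4, 56.7 and 40.1 FPKM in control and at 21.6, 101 and 49.3 FPKM in Med23 CKO, with both its lowest and its highest value in the Med23 CKO group (-0.16 ± 0.50). Bcl2 itself was the lowest of these genes, at 4.59, 2.28, 3.48 and 3.86 FPKM in control and at 4.60, 3.27 and 3.04 FPKM in Med23 CKO (0.04 ± 0.25). Bcl2l2 stayed between 15.1 and 19.7 FPKM in the 7 libraries, one of the narrowest ranges of all 41 genes on the log2(FPKM + 1) scale. Mcl1 made up 36.7% to 58.3% of the summed FPKM of the 4 genes and Bcl2l1 19.6% to 52.4%.

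The balance of an effector against a pro-survival gene was computed within each library, where it does not depend on how the library was scaled. The log2 ratio of Bax to Bcl2 was 6.17, 7.14, 6.55 and 6.91 in control and 6.03, 6.52 and 6.37 in Med23 CKO. These amount to 6.69 ± 0.42 (SD, n = 4) and 6.31 ± 0.25 (SD, n = 3), a difference of -0.39 that the spread between libraries covered (two-sided exact permutation test, p = 0.200). The log2 ratio of Bax to Bcl2l1 was 2.95, 1.95, 2.53 and 3.53 in control and 3.81, 1.56 and 2.35 in Med23 CKO. Its lowest and highest values were both in Med23 CKO libraries, and the difference was -0.16 (exact permutation test, p = 0.800) but 0.34 without KO_214 and 0.10 without WT_220.

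Downstream of the mitochondria, the genes of the apoptosome and of the proteins released with cytochrome c were the most alike between the groups of all the roles, with log2 fold changes from -0.13 to 0.06 for all 6. Cycs, cytochrome c, was at 88.3, 97.5, 107 and 71.0 FPKM in control and at 83.5, 78.8 and 118 FPKM in Med23 CKO (0.03 ± 0.21), and its many processed pseudogenes make the level uncertain. Diablo, an antagonist of IAP proteins, had the narrowest range of all 41 genes on that scale, at 31.4, 37.0, 28.8 and 35.5 FPKM in control and at 31.5, 33.1 and 32.7 FPKM in Med23 CKO (-0.03 ± 0.15, 95% interval -0.39 to 0.33). Apaf1 was at 11.5 FPKM in each Med23 CKO library and between 9.62 and 12.7 FPKM in control. Htra2, a mitochondrial protease that also cuts IAP proteins, was at 29.2, 18.9, 21.0 and 35.2 FPKM in control and at 28.7, 24.0 and 17.5 FPKM in Med23 CKO (-0.13 ± 0.27). Aifm1, a flavoprotein that can act without caspases, was at 23.7, 18.5, 23.6 and 26.4 FPKM in control and at 29.2, 20.8 and 21.3 FPKM in Med23 CKO (0.04 ± 0.20), and Endog, a mitochondrial nuclease, stayed between 5.03 and 11.0 FPKM.

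Of the apoptotic caspases, the initiators Casp2, Casp8 and Casp9 and the effector caspase Casp6 did not differ at an unadjusted p under 0.05. Casp9 was between 5.52 and 6.88 FPKM in control and between 4.78 and 9.59 FPKM in Med23 CKO. Casp8, the initiator of the receptor pathway, was at 10.1 FPKM in KO_214 and between 2.88 and 4.63 FPKM in the other 6 libraries (0.46 ± 0.35, and 0.05 without KO_214). Casp2 ranged from 7.19 to 14.0 FPKM and Casp6 from 6.26 to 11.8 FPKM.

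Casp1, Casp4 and Casp12 belong to the inflammatory branch of the caspase family, in which Casp1 matures interleukins and Casp4 (caspase-11) responds to bacterial lipopolysaccharide. They lie side by side on chromosome 9 of GRCm38, Casp1 at 5298517 to 5307281, Casp4 at 5308849 to 5336791 and Casp12 at 5345442 to 5373034, with gaps of 1.57 and 8.65 kb and 0 coding genes between them. Casp1 was at 1.89, 3.92, 5.93 and 0.558 FPKM in control and at 1.38, 26.9 and 4.63 FPKM in Med23 CKO. KO_214 stood far above all other libraries, whose order ran through both groups, and the log2 fold change was 1.03 ± 0.86 (unadjusted p = 0.267). Casp4 was at 0.560, 1.55, 0.789 and 0.149 FPKM in control and at 0.167, 8.84 and 1.78 FPKM in Med23 CKO, again highest in KO_214 (0.91 ± 0.67, unadjusted p = 0.217). Casp12 was at 0.546, 1.42, 1.98 and 0.156 FPKM in control and at 0.600, 3.53 and 4.07 FPKM in Med23 CKO. Here KO_214 and KO_218 were both above every control and KO_117 was among the lowest (0.81 ± 0.50, unadjusted p = 0.145). The median log2 fold change of the 3 genes was 0.91, and without KO_214 it was 0.09, with 0.05 for Casp1, 0.09 for Casp4 and 0.59 for Casp12. Leaving out KO_117 gave 1.63 for Casp4 (unadjusted p = 0.0198) and 1.34 for Casp12 (unadjusted p = 0.0133). The unadjusted p of Casp12 was also under 0.05 after quantile normalization (0.0494) and with array weights (0.0194). Those weights were 3.01 for KO_218, where Casp12 was highest, against 0.441 for KO_214 and 0.301 for KO_117, so that fit rests mostly on KO_218. In the library where Casp1 and Casp4 were highest, the microglia and macrophage genes were highest too, as given above, and in WT_220, where all 3 caspases were lowest, the mean of those genes was lowest, at 1.57. Their part in these levels was not tested.

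Of the death receptors, Tnfrsf1b showed the same pattern. This gene codes for TNF receptor 2, which lacks a death domain and is found mainly on immune and endothelial cells. It was at 2.87, 3.63, 6.54 and 0.935 FPKM in control and at 1.13, 36.7 and 5.14 FPKM in Med23 CKO, the widest range of all 41 genes on the log2(FPKM + 1) scale. KO_117 and KO_218 lay within the control range, and the log2 fold change was 0.97 ± 0.93 with all libraries, -0.15 without KO_214 and 1.92 without KO_117 (unadjusted p = 0.0457). Tnfrsf1a, TNF receptor 1, which is widely expressed and carries a death domain, was at 53.3, 38.8, 43.2 and 58.5 FPKM in control and at 51.0, 83.7 and 39.8 FPKM in Med23 CKO (0.21 ± 0.28). It made up 49.9% to 88.7% of the summed FPKM of the 4 receptor genes. Fas was at 4.70, 23.7, 17.2 and 2.13 FPKM in control and at 1.28, 20.5 and 12.1 FPKM in Med23 CKO. Its 18.5-fold range ran through both groups, and the log2 fold change of -0.13 ± 0.97 has a 95% interval from -2.39 to 2.12. Tnfrsf10b, the mouse TRAIL receptor, ranged from 4.11 FPKM in KO_117 to 13.7 FPKM in KO_214 (-0.10 ± 0.40).

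The 5 genes that act next to the receptors all had a higher mean in Med23 CKO, with a median log2 fold change of 0.27 that was 0.01 without KO_214. Ripk3, the kinase of necroptosis, was at 1.36, 1.79, 2.64 and 0.971 FPKM in control and at 1.63, 9.29 and 1.64 FPKM in Med23 CKO, so that only KO_214 lay outside the control range (0.66 ± 0.51, and 0.01 without KO_214). Ripk1 (0.42 ± 0.26, and 0.18 without KO_214), Tradd (0.25 ± 0.38) and the Casp8 inhibitor Cflar (0.27 ± 0.46) were also highest in KO_214, at 12.4, 17.1 and 20.9 FPKM. The adaptor Fadd stayed between 4.25 and 7.74 FPKM (0.04 ± 0.24).

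**Figure D4:**
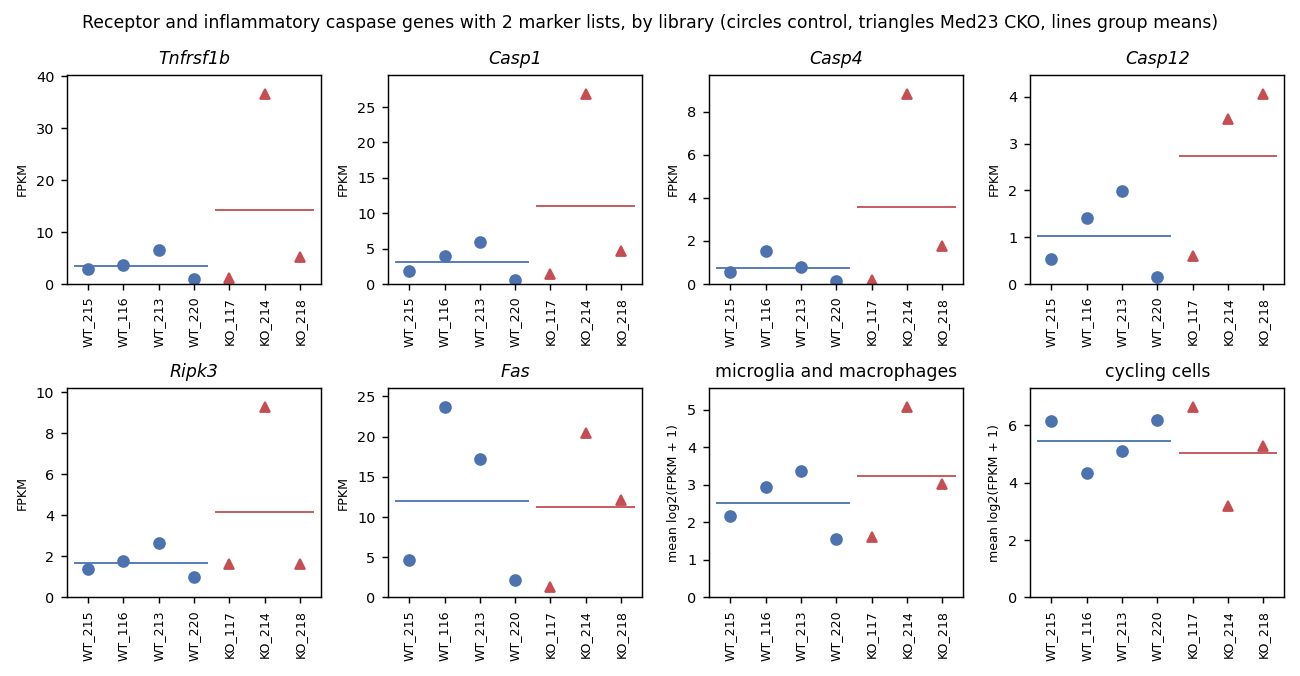
FPKM by library of Tnfrsf1b, Casp1, Casp4, Casp12, Ripk3 and Fas, and the mean log2(FPKM + 1) of 15 microglia and macrophage genes and of 10 cycling cell genes, with circles for control, triangles for Med23 CKO and lines at group means. KO_214 holds the highest value of Tnfrsf1b, Casp1, Casp4, Ripk3 and the microglia and macrophage genes and the lowest value of the cycling cell genes.

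IAP proteins bind caspases or the receptor complexes, and Diablo and Htra2 displace them. Birc2 and Birc3, which code for cIAP1 and cIAP2, are neighbours on chromosome 9, at 7818226 to 7837131 and 7847468 to 7873205, 10.3 kb apart with 0 coding genes between them. Birc2 was at 7.85, 15.4, 13.1 and 6.83 FPKM in control and at 8.87, 14.8 and 14.4 FPKM in Med23 CKO (log2 fold change 0.25 ± 0.33). Birc3, which NF-kappaB induces, was at 1.12, 1.55, 2.83 and 0.482 FPKM in control and at 0.412, 7.08 and 1.86 FPKM in Med23 CKO. It spanned 17.2-fold against 2.26-fold for its neighbour, was highest in KO_214 and lowest in KO_117, and its log2 fold change was 0.44 ± 0.59 with all libraries and -0.23 without KO_214. Xiap, the direct caspase inhibitor, ranged from 14.8 to 23.2 FPKM (0.24 ± 0.19) and Birc6 from 12.7 to 19.0 FPKM (0.03 ± 0.19). Birc3 supplied 12.4% of the summed FPKM of the 4 genes in KO_214 and 0.837% to 5.10% in the other libraries.

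Across the list, KO_214 held the highest of the 7 values for 18 of the 40 genes (45.0%), against 25.4% of all genes. It was the highest library for 2 of 4 pro-survival genes, 4 of 7 BH3-only genes, 2 of 3 inflammatory caspases, 2 of 4 apoptotic caspases, 1 of 4 IAP genes, 3 of 4 receptors and 4 of 5 genes next to them, but for none of the 3 effectors and none of the 6 genes of the apoptosome and mitochondrial release. Without KO_214 the median log2 fold change of the 40 genes was 0.03 (-0.06 over all genes), without KO_117 it was 0.15 (-0.04) and without KO_218 it was 0.18 (0.00). At an unadjusted p under 0.05, 0 of the 40 genes were higher without KO_214, against 0.551% of all genes, and 3 were higher without KO_117 (Casp4, Casp12 and Tnfrsf1b), against 2.50% of all genes.

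A count made after the values were seen set the genes beside the cycling cell genes, whose mean was highest in KO_117, WT_220 and WT_215, in that order. The 3 lowest values lay in these 3 libraries for 15 of the 40 genes (37.5%), against 23.6% of all genes, and these were Bcl2l1, Pmaip1, Casp1, Casp4, Casp12, Casp8, Birc2, Birc3, Fas, Tnfrsf1b, Tnfrsf10b, Tradd, Ripk1, Ripk3 and Cflar. The 3 highest values lay there for 8 of the 40 genes (20.0%), against 26.1% of all genes, and these were Bcl2, Bak1, Bok, Casp2, Htra2, Aifm1, Endog and Fadd. The receptor pathway and the inflammatory caspases were mostly in the first set. Of the Bax-type effectors, Bak1 and Bok were in the second set, whose share was below that of all genes, and Bax was in neither. The same 3 libraries comprise 2 controls and 1 Med23 CKO library, and they also held the lowest means of the microglia and macrophage genes (1.57 to 2.17, against 2.95 to 5.08 in the other 4). The part of cell composition or cell cycle in these orders was not tested.

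**Figure D5:**
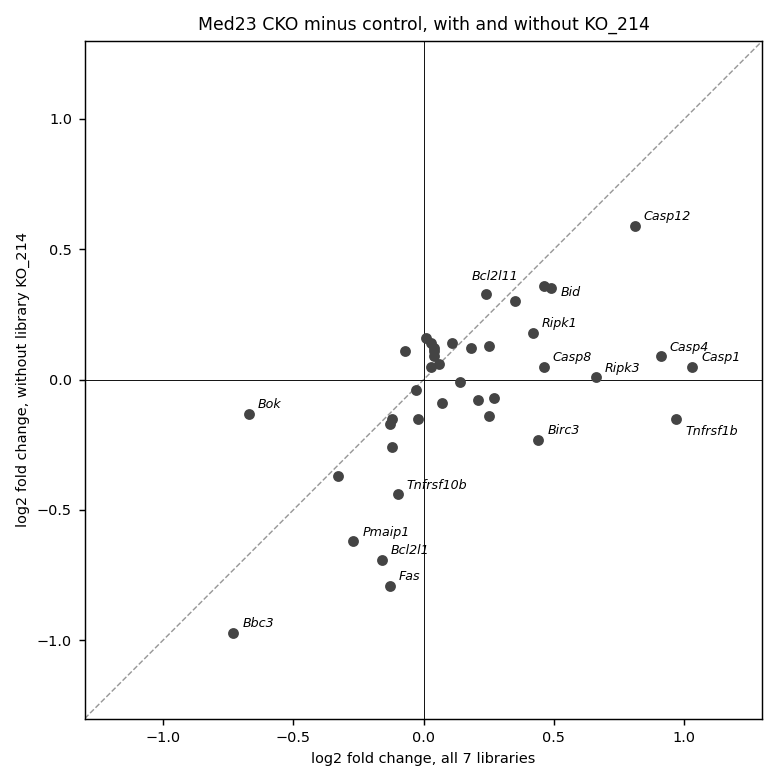
Log2 fold change of Med23 CKO over control for the 40 genes, with all 7 libraries on the x axis and without KO_214 on the y axis, where the dashed line marks equal values. Casp1, Casp4, Tnfrsf1b and Ripk3 lie near 0 on the y axis (-0.15 to 0.09), whereas Bbc3 (-0.97), Bid (0.35) and Casp12 (0.59) keep their side.

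A further 36 genes of the pathway, among them ligands, Traf proteins, mitochondrial channels and p53 with its targets, were counted beside the list, and 33 of them were tested. Tnfsf10, Fasl and Bcl2l14 were below the filter. Means were higher in Med23 CKO for 18 and lower for 15, with a median log2 fold change of 0.08 that was -0.13 without KO_214. At an unadjusted p under 0.05, 0 were higher and 1 was lower, against 0.996% of all genes that were lower. The groups were apart for 3 genes, lower in Med23 CKO each time, against 1.53% of all genes. These 3 are described because of that separation, which by itself puts the exact permutation p near its smallest possible value. Pidd1, the scaffold through which p53 activates Casp2, was at 14.2, 14.1, 15.7 and 18.5 FPKM in control and at 13.0, 11.2 and 9.65 FPKM in Med23 CKO. No values overlapped, and the log2 fold change was -0.44 ± 0.19 (SE; limma, unadjusted p = 0.0487; exact permutation test, p = 0.0286, the smallest the design allows). The unadjusted p was above 0.05 in 6 of the 7 fits that left out 1 library (0.0605 to 0.143, the exception being the fit without KO_117), after median centring (0.0512) and in limma without trend (0.0504). Dffb, the nuclease that cuts DNA between nucleosomes in dying cells, was at 6.13, 6.41, 6.04 and 6.40 FPKM in control and at 5.58, 3.99 and 4.75 FPKM in Med23 CKO (-0.34 ± 0.18; limma, unadjusted p = 0.104; exact permutation test, p = 0.0286). Aen, a p53-induced nuclease, was at 55.0, 60.0, 61.2 and 75.8 FPKM in control and at 51.8, 54.6 and 53.8 FPKM in Med23 CKO, all below the lowest control by a small margin (-0.22 ± 0.16; limma, unadjusted p = 0.200; exact permutation test, p = 0.0571). Trp53, which codes for p53, had a log2 fold change of -0.06 ± 0.31. The other pathway gene with the highest log2 fold change was Bcl2a1b (1.01 ± 1.15), a pro-survival gene of blood cells whose near-identical copies Bcl2a1a and Bcl2a1d make the split of its reads uncertain, and all 3 copies were highest in KO_214.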

How the data were processed

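RNA was sequenced from primary neurospheres of 4 control and 3 Med23 CKO mice (libraries from NEBNext Ultra RNA kits). The authors trimmed adapters with cutadapt, aligned reads to mm10 with TopHat at default settings and deposited FPKM values per gene from Cuffdiff, and the processing notes also name FastQC. FPKM keeps no read counts, so depth is unknown and no counting intervals are given. The libraries had 16841 to 18113 genes above 0, and the 10 genes of highest level took 5.12% to 12.2% of the FPKM. Deposited columns with group means, fold changes, test statistics, p and q values from the study's own comparison were not used.

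FPKM values were compared on log2(FPKM + 1) with limma 3.58.1 (R 4.3.3, lmFit and eBayes with trend) over the 14151 genes that averaged 0.5 FPKM or more, two-sided, with Benjamini-Hochberg adjustment over all genes tested. The fits were tested on simulated data. Single values and ratios were compared by exact permutation over all 35 assignments of the 7 libraries, without adjustment for the number of genes. For genes picked because their groups did not overlap, that test mostly restates the choice. The alternatives were a pseudocount of 0.1, no filter, a minimum mean of 1 FPKM, quantile normalization, median centring, limma without trend or with array weights, and leaving out each library. The study states 3 mice per group for RNA sequencing, whereas the labels and the table hold 4 controls, all of which were kept. Samples are separate mice, the labels name no batch, and 0 of the table's library columns lacked a group. The study's methods give the tamoxifen age for cultures as 1 month. Values in every library are given for genes with an unadjusted p under 0.05 or non-overlapping groups, the 12 of highest mean FPKM, the 10 of widest range, and genes of a ratio or cluster. The genes and lists were chosen with earlier results of these data known. Promoters came from RefSeq (GRCm38.p6).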

Additional observations from a re-analysis of the deposited data

Results flagged for a closer look

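Among the 4 control libraries, the Bax level of 463 FPKM in WT_220 lay far from the others, which were between 321 and 332 FPKM, with a gap that took up 0.924 of the range of the group. The Bcl2l11 level of 4.21 FPKM in WT_213 likewise lay apart from the other controls, between 2.79 and 2.98 FPKM, with a gap of 0.865 of the range. For normally distributed values, chance sets a library apart in this way in about 1 of 20 groups. The 41 genes of the list, Med23 and Pidd1 were examined, on FPKM values without logs. Without WT_220 the Bax log2 fold change was -0.21 in place of -0.33, and without WT_213 that of Bcl2l11 was 0.57 in place of 0.46.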

How the results depend on the processing

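Over the 40 genes, Pidd1 and Med23, 586 alternative values were computed, of which 498 kept their direction and their side of an unadjusted p of 0.05, 20 lost the call (Bid, Bbc3 and Pidd1), 11 gained one (7 genes) and 57 turned direction (24 genes). The cause of these changes was not tested. With no filter, with a minimum mean of 1 FPKM and without trend, the same log2 values were refitted. In those fits the log2 fold change could not turn direction, and only the call could change. At an unadjusted p under 0.05, 1 of the 40 genes was higher in Med23 CKO, a count that became 3 after quantile normalization, 2 after median centring and 0 to 3 on leaving out 1 library, and the number lower was 1, 2 with array weights and 0 to 1 on leaving out 1 library. With array weights 193 of all genes were higher and 887 lower (71 and 141 without weights). The weights were 0.301 for KO_117, 0.441 for KO_214 and 3.01 for KO_218, and 0.623 to 2.40 in control. The Med23 CKO mean in that fit therefore rests mostly on KO_218. Genes above all control values numbered 2, then 1 at a minimum mean of 1 FPKM, where Bmf was no longer tested, and 2 to 5 on leaving out 1 library, and genes below them numbered 1, then 1 to 2. Without KO_214 or without KO_218, 1 of all 14151 genes passed an adjusted p of 0.05. The median log2 fold change stayed between 0.03 and 0.18. The difference in the log2 ratio of Bax to Bcl2 stayed between -0.56 and -0.24, and that of Bax to Bcl2l1 lay between -0.78 and 0.34, on leaving out 1 library. With array weights the log2 fold change turned to -0.15 for Bcl2, -0.18 for Mcl1, -0.30 for Bak1, 0.09 for Pmaip1, -0.18 for Casp6, -0.13 for Casp9, 0.05 for Diablo, -0.08 for Aifm1, -0.07 for Birc6, 0.14 for Fas, -0.08 for Tnfrsf1a, 0.01 for Tnfrsf10b and -0.14 for Fadd. On leaving out 1 library the log2 fold change ranged from -0.11 to 0.15 for Bcl2, -0.69 to 0.40 for Bcl2l1, -0.09 to 0.22 for Mcl1, -0.42 to 0.28 for Bak1, -0.15 to 0.11 for Bad, -0.69 to 0.42 for Pmaip1, -0.26 to 0.02 for Hrk, -0.33 to 0.11 for Casp2, -0.01 to 0.37 for Casp6, -0.01 to 0.42 for Casp9, -0.15 to 0.14 for Cycs, -0.09 to 0.03 for Diablo, -0.29 to 0.05 for Htra2, -0.12 to 0.12 for Aifm1, -0.28 to 0.07 for Endog, -0.23 to 1.03 for Birc3, -0.08 to 0.10 for Birc6, -0.79 to 0.83 for Fas, -0.08 to 0.44 for Tnfrsf1a, -0.15 to 1.92 for Tnfrsf1b, -0.44 to 0.33 for Tnfrsf10b, -0.18 to 0.19 for Fadd, -0.14 to 0.46 for Tradd and -0.07 to 0.66 for Cflar. The controls were littermates, but the labels do not name the litters, so litter was not taken into account and no paired analysis was run. Depth is unknown, and with 3 libraries against 4, differences smaller than the intervals given may have been missed.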
